A study of Mus musculus with 12 samples.

Results

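The 8 genes described here were listed as genes of the mucous cells of the gastric glands, in the antrum and the gland neck. The list holds Muc6, Tff2, Dmbt1, Cxcl17, Glipr1, Pla2g1b, Krt7 and Prom1. They were taken by name with earlier results of these data known, so their counts against all genes are a description only. Of the 8, 7 had a probe set of their own, a group of short probes that reads 1 transcript, among the 11807 genes with one. Muc6, the gel-forming mucin of these cells, had none, so no level of it was measured. All 7 genes passed the filter on dim genes in stomach and 5 passed it in colon.

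Transcript levels were measured in stomach and colon tissue of 16 week old, untreated C57BL/6 mice on 12 Affymetrix mouse arrays. The Spdef genotypes compared were wild type (WT), heterozygote (HET) and knockout (KO), each with 2 arrays per tissue, in 6 groups. The labels give neither the sex nor the region of the stomach. Nor do they state that 2 samples with 1 genotype were taken from different mice, and each p-value is therefore a measure of the spread among the arrays, which may be technical. Levels are log2(intensity + 16) after quantile normalization, on which folds of dim genes are understated, and levels of different genes cannot be set against each other because each probe set has its own response.

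Gastric glands hold mucous cells at the neck, between the surface pit cells above and the chief cells below, and the glands of the antrum consist largely of such cells. They secrete a mucus built on MUC6 and packed with the trefoil peptide TFF2, which differs from the MUC5AC and TFF1 mucus of the surface. Spdef is a transcription factor of the ETS family, whose members bind DNA at a GGAA or GGAT core, and its known role is in the maturation of goblet and other mucous cells.

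The arrays were checked on Spdef and on markers of tissue first. In stomach Spdef lay between 8.96 and 9.19 in WT, between 8.94 and 9.06 in HET and between 8.63 and 8.86 in KO; in colon the WT arrays had 10.97 and 8.74, the HET arrays 10.27 and 9.81, and the KO arrays 9.08 and 9.25. Where its probe set lies relative to the deletion is not given in the sources used here, so it is no check of the labels. The array labelled colon WT 2 went against its tissue label: the mean of 4 measured colon genes was 5.66 there against 9.37 to 10.87 on the other colon arrays, and that of 8 small intestine genes was 11.94 against 5.30 to 6.33. The KO minus WT differences of Dmbt1 and Prom1 in colon are therefore also given without it, and most other colon results include it. In stomach the submitters' processing notes name RMA for both KO arrays and MAS5 for the WT and HET arrays. All columns are linear with the same trimmed mean, so the files do not settle whether the arrays were processed differently, and if they were, processing and genotype cannot be told apart in stomach.

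In stomach, Tff2, the trefoil peptide of the gland mucus, did not separate the genotypes. It read 13.61 and 13.75 in WT, 13.68 and 13.93 in HET and 13.70 and 13.79 in KO. All 3 groups overlapped. These levels are near the top of each array, where ranks are squeezed together: the deposited intensities ran from 11662 to 17995, both in HET. The KO minus WT difference was 0.06 (95% confidence interval -1.03 to 1.15), so differences within that interval were not detectable with these arrays. In bulk tissue such as this, fewer cells of a type and less RNA per cell cannot be told apart.

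Pla2g1b, a secreted phospholipase A2 best known as a digestive enzyme of the pancreas, was among the brightest probe sets of every stomach array, which limits what its levels can show. Its main probe set read 14.23 and 14.30 in WT, 13.86 and 14.30 in HET and 14.11 and 14.30 in KO. The lowest of the 6 values was HET 1, and the groups overlapped. The value of 14.30, shared by 3 arrays, is what quantile normalization gives the probe set ranked 4 on its array; before it the intensities ran from 12725 in HET 1 to 25785 in HET 2. KO minus WT was -0.06 (95% confidence interval -0.47 to 0.34) and -0.12 on the values without quantile normalization, and near this ceiling it does not show that the level was stable. The gene has 4 probe sets, which disagree: another was ranked 1 on 5 of the 6 stomach arrays, where normalization sets a single value, so it gives no further measure of the genotypes, and the remaining pair was dim on all arrays. Other pancreas genes were mixed in stomach. Clps, the cofactor of pancreatic lipase, lay between 14.32 and 14.37, the lipase-related Pnliprp1 between 11.42 and 11.80 and the lipase Cel between 8.58 and 9.22, all above the filter level of 6.53. Cpa1, a pancreatic carboxypeptidase, lay between 4.14 and 4.51 and the protease Ctrb1 between 4.27 and 5.66, below it. The mean of the 9 measured pancreas genes lay between 7.46 and 7.66, and the part of pancreatic RNA in the level of Pla2g1b was not tested.

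Dmbt1 and Cxcl17, the genes of mucosal defence in the list, were those whose KO stomach arrays both lay above all WT and HET arrays, although neither difference passed the threshold. Dmbt1 encodes a secreted glycoprotein with scavenger receptor cysteine-rich domains that binds microbes at mucosal surfaces. It read 10.27 and 10.65 in WT (deposited intensities 1204 and 1601), 11.15 and 11.85 in HET (2271 and 3727) and 12.77 and 12.57 in KO (7191 and 5984). Both WT arrays lay below both HET arrays, and those below both KO arrays. The group means were 10.46 ± 0.27, 11.50 ± 0.49 and 12.67 ± 0.15 (SD, n = 2 each).

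The KO minus WT difference of Dmbt1 was 2.21 (SE 0.60, 95% confidence interval 0.86 to 3.56), which is 4.62-fold, and was the highest of the 7858 genes tested in stomach. Over all genes it missed the threshold in limma (unadjusted p = 0.00470, adjusted p = 0.860). HET minus WT was 1.04 (-0.31 to 2.39) and KO minus HET was 1.17 (-0.18 to 2.52), neither past the threshold. The 3 comparisons share arrays and are not independent of each other. The spread behind these intervals was estimated over both tissues, and 1 array sets much of it: Dmbt1 on colon WT 2. With stomach fitted alone the difference of Dmbt1 had an SE of 0.22 and an adjusted p of 0.00898 in limma, with 7 genes past the threshold, and without colon WT 2 the adjusted p was 0.00548. Leaving out colon WT 1 instead also removes that group's spread, and gave 0.00583. Xist, which is expressed in females, was 12.77 in KO 1 and 7.48 in KO 2, against 12.46 to 12.71 in the WT and HET stomach arrays. The parts of sex and of the processing notes in the levels of Dmbt1 were not tested.

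Cxcl17, a chemokine of mucosal epithelia that draws myeloid cells, followed the same order over a smaller range. It read 11.10 and 11.07 in WT (deposited intensities 2190 and 2146), 11.25 and 11.37 in HET (2421 and 2631) and 11.88 and 11.77 in KO (3785 and 3537). The 3 groups did not overlap, with means of 11.09 ± 0.03, 11.31 ± 0.08 and 11.83 ± 0.08 (SD, n = 2 each). KO minus WT was 0.74 (95% confidence interval -0.18 to 1.66), or 1.67-fold, and did not pass the threshold in limma (adjusted p = 0.9995). With stomach fitted alone its SE was 0.11 and its adjusted p 0.0577, so Cxcl17 stayed above the threshold there too.

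Both genes thus stood in the order WT below HET below KO without overlap, which 2 of the 7 genes showed. That order was found in 154 of 7858 genes tested in stomach (1.96%), and the opposite order in 120 (1.53%). Among the 154, Dmbt1 had the largest KO minus WT difference and Cxcl17 the 21st. Across the 6 stomach arrays the levels of the pair had a Pearson r of 0.96, a description of 6 arrays of which 4 carry the difference between WT and KO. Dmbt1 and Cxcl17 both lie on chromosome 7, as does Muc6, while Spdef lies elsewhere; 16 of the 154 genes were on chromosome 7 (10.4%), against 577 of 7854 placed genes tested (7.35%).

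**Figure D1:**
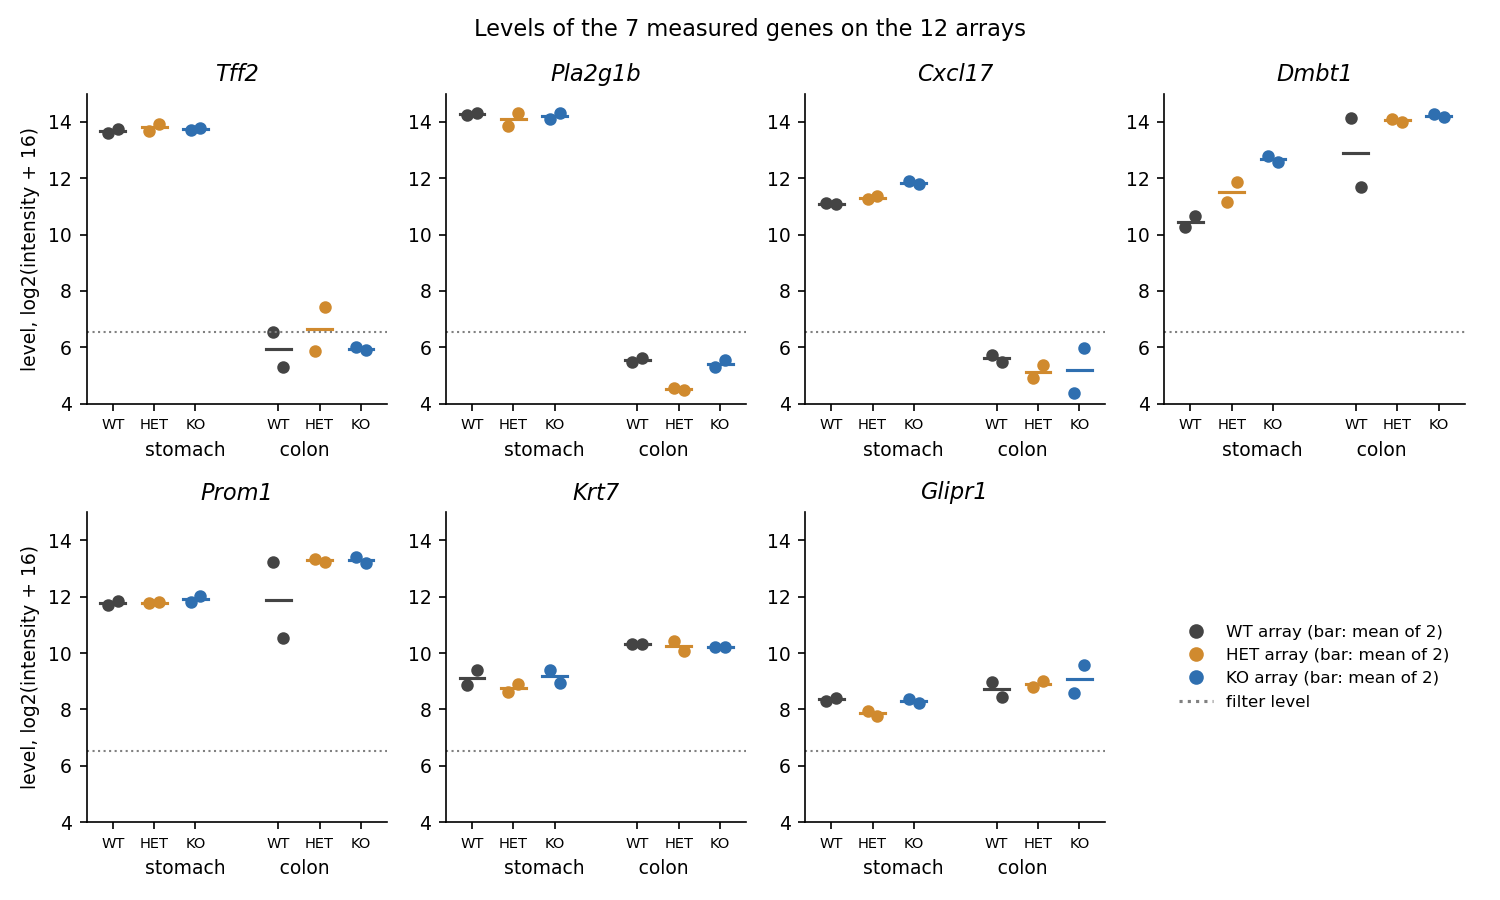
Level of each of the 7 measured genes on the 12 arrays, as log2(intensity + 16) after quantile normalization, by tissue and genotype; points are arrays, bars are means of 2 and the dotted line is the filter level of 6.53. Tff2, Pla2g1b and Cxcl17 lie far lower in colon than in stomach. Within stomach Dmbt1 ranges from 10.27 in a WT array to 12.77 in a KO array, and 1 colon WT array stands low for Dmbt1 and Prom1.

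The cell-associated genes of the list did not separate KO from WT in stomach. Prom1, a membrane glycoprotein of cell surface protrusions that is used as a progenitor marker, read 11.71 and 11.83 in WT, 11.76 and 11.80 in HET and 11.79 and 12.03 in KO. Its groups overlapped, and KO minus WT was 0.14 (95% confidence interval -1.27 to 1.56). Krt7, a keratin of ducts and simple glandular epithelium, read 8.86 and 9.39 in WT, 8.61 and 8.89 in HET and 9.41 and 8.94 in KO. Both KO arrays lay above both HET arrays, but WT spanned most of the range, and KO minus WT was 0.05 (-0.46 to 0.56).

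Glipr1, a member of the family of cysteine-rich secretory and pathogenesis-related proteins, was lowest in HET. It read 8.31 and 8.41 in WT, 7.95 and 7.78 in HET and 8.38 and 8.22 in KO. Both HET arrays lay below all 4 others. HET minus WT was -0.49 (95% confidence interval -1.17 to 0.18), KO minus HET was 0.43 (-0.25 to 1.10) and KO minus WT was -0.06 (-0.74 to 0.61), none past the threshold.

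Counted over the list, KO minus WT in stomach was positive in 5 of the 7 genes and negative in 2, with a median of 0.06 against 0.01 for all genes tested. In limma 0 of the 7 passed an adjusted p of 0.05, where 0.0127% of all genes did, and 1 (Dmbt1) had an unadjusted p under 0.05, as 289 genes did. The KO and WT arrays did not overlap, with KO higher, in 2 of the 7 (Dmbt1 and Cxcl17), against 20.5% of all genes, and with KO lower in 0, against 16.7%. For KO minus HET 0 of 7 passed in limma (background 0.0127%), 0 had an unadjusted p under 0.05, and the arrays did not overlap, with KO higher, in 4 of 7 (Dmbt1, Cxcl17, Krt7 and Glipr1) against 18.6% of all genes, and with KO lower in 0, against 13.5%. For HET minus WT 0 of 7 passed in limma (background 0%), 0 had an unadjusted p under 0.05, and the arrays did not overlap, with HET higher, in 2 (Dmbt1 and Cxcl17) against 17% and, with HET lower, in 1 (Glipr1) against 18.5%.

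**Figure D2:**
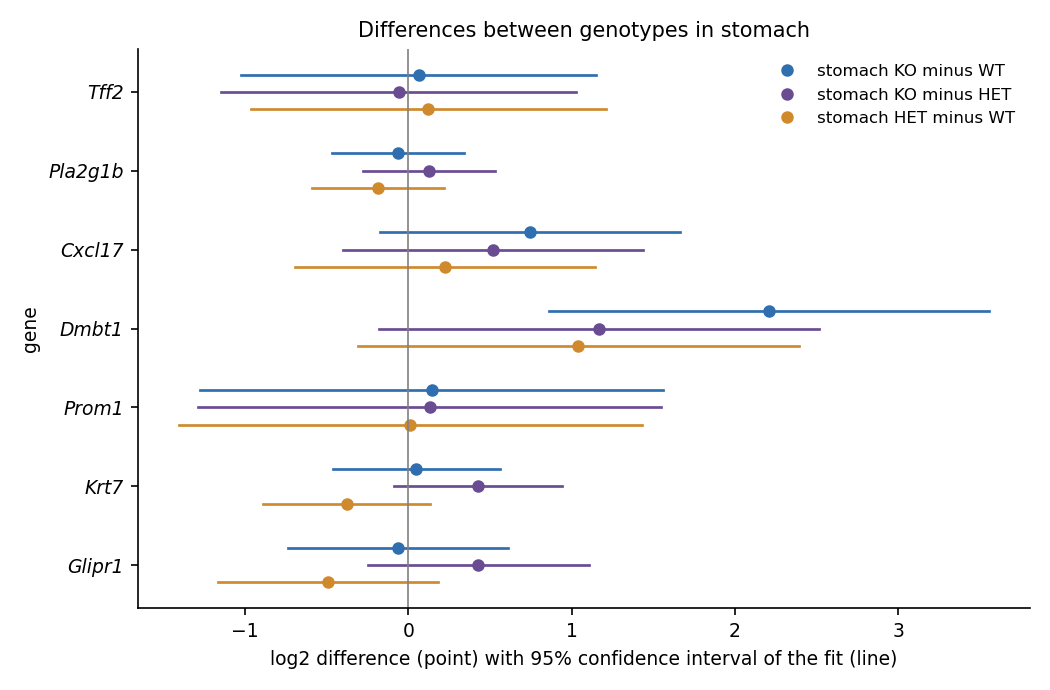
Differences between genotypes in stomach for the 7 genes on the log2 scale; points are the fitted differences and lines their 95% confidence intervals, from 2 arrays per group. The interval of Dmbt1 for KO minus WT (0.86 to 3.56) is the one of the 21 that does not reach 0, before any adjustment over genes.

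The makeup of the stomach samples varied beside these values. Gast, the gastrin gene of antral endocrine cells, read 4.58 and 9.04 in WT, 4.61 and 8.13 in HET and 4.14 and 4.68 in KO. It was thus below the filter level in both KO arrays and in WT 1 and HET 1, and above it in WT 2 and HET 2. The mean of the 2 measured antral genes, Gast among them, was 5.26 and 7.80 in WT, 5.15 and 7.29 in HET and 4.91 and 5.53 in KO. The part of antral tissue in the levels of Dmbt1 was not tested. The mean of 10 genes of squamous epithelium, which lines the forestomach, was 7.64 and 8.27 in WT, 9.40 and 6.63 in HET and 5.50 and 5.65 in KO, and all 8 tested genes of that list had negative KO minus WT differences (median -3.50), with 0 past the threshold in limma. Its part in the levels of Dmbt1 and Cxcl17 was not tested. Of the goblet cell list 3 genes were tested, with 0 past the threshold in limma. Their KO minus WT differences were negative in 2 and positive in 1, from -1.72 to 0.25 with a median of -1.55. The most negative was that of Clca1, a secreted goblet cell protein. It read 9.12 and 11.39 in WT, 9.63 and 9.99 in HET and 8.94 and 8.12 in KO. The part of goblet cells was not tested either. The markers of the gastric gland and surface covered a smaller range: the 6 measured surface mucous genes had a mean between 13.99 and 14.07 on every stomach array, the 5 chief cell genes between 12.73 and 13.11 and the 6 parietal cell genes between 10.76 and 11.18. Their median KO minus WT differences were 0.02, -0.02 and -0.20, with 0 genes of these 3 lists past the threshold in limma. All 6 parietal differences were negative, from -0.45 to -0.03, and the chief cell differences ran from -0.72 to 0.01. The surface mucous means lie near the top of the arrays, so their small range does not show a stable makeup. The chief cell gene Pgc read 14.07 to 14.30, while its deposited intensities ran from 14750 to 24437.

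**Figure D3:**
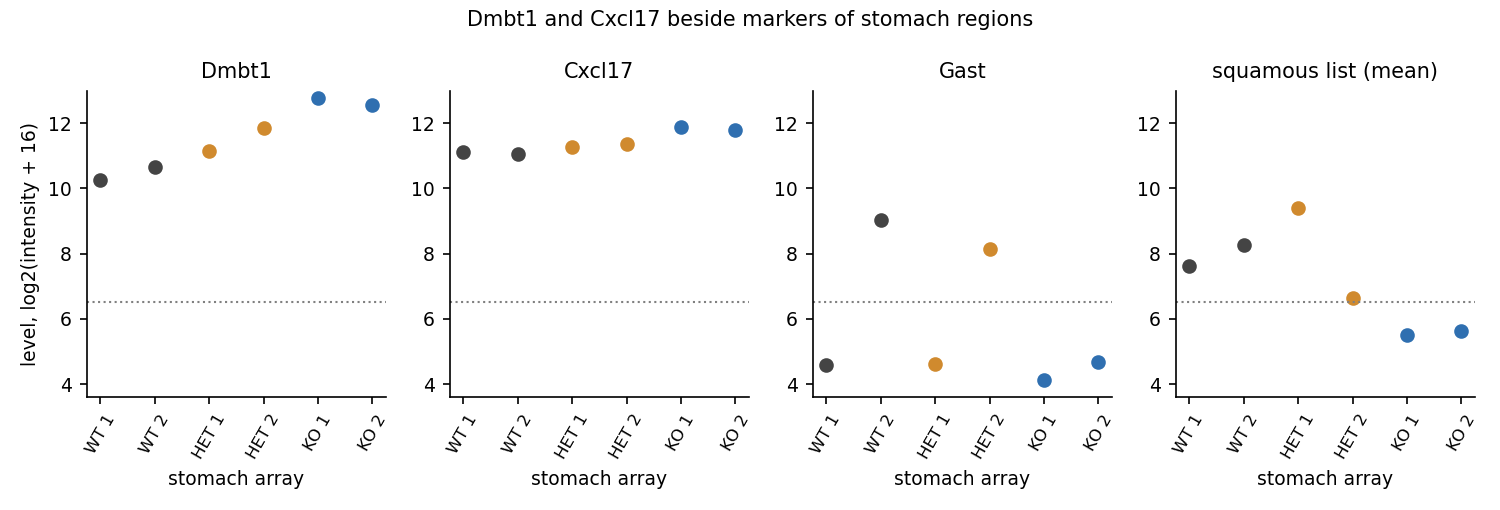
Dmbt1, Cxcl17, Gast and the mean of the squamous epithelium list on each of the 6 stomach arrays, as log2(intensity + 16); the dotted line is the filter level of 6.53. Gast is above that level on WT 2 and HET 2, and the squamous mean ranges from 9.40 on HET 1 to 5.50 on KO 1.

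Other genes of mucous gland cells were set beside the 7. Of 16 further genes 14 had a probe set and 11 were tested in stomach, with a median KO minus WT difference of -0.01. In limma 0 were higher and 1 was lower: Creb3l4, a membrane-bound transcription factor of secretory cells, fell from 8.66 and 8.60 in WT to 5.20 and 5.84 in KO, at least 4.29-fold against the filter level (adjusted p = 0.0228). Its difference was negative in all 21 alternatives, and with stomach fitted alone the adjusted p in limma was 0.00185. The call was lost in 10 of the 21, among them the replicate block (0.0769) and leaving out either WT or either KO array. The next by size, none past the threshold, were Ern2, a stress sensor of the endoplasmic reticulum in mucus cells, at -0.89, the hyaluronan receptor Cd44 at 0.44 and Galnt6, which starts O-glycan chains, at -0.44. Clu, a secreted chaperone, was at -0.01 and Bpifb1, a secreted defence protein, at -0.01.

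No tested relative of the 7 in their gene families passed the threshold for KO minus WT in stomach. Tff1, the trefoil peptide of the surface, was at -0.03 and Tff3, that of goblet cells, at 0.25, beside 0.06 for Tff2. The 4 tested secreted phospholipases A2 lay between -0.06 and 0.19, the 6 keratins of simple epithelium between -0.49 and 0.15, and Prom2, the other prominin, at 0.22. Muc5ac, the surface mucin and the one tested gel-forming mucin, was at 0.09. The other tested gene with scavenger receptor cysteine-rich domains was at 0.18, against 2.21 for Dmbt1. Of 13 measured genes of the epithelial defence response only 3 were tested in stomach, where the mean of the 13 lay between 5.06 and 5.73, below the filter level. The 3 were all negative for KO minus WT (median -0.86) and all positive for HET minus WT (median 0.19), and 0 passed in limma.

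By a rule of likeness, the highest Pearson r over the 6 stomach arrays, the genes nearest to Dmbt1 were Luc7l3 (0.997), Adgrl1 (0.983) and 1810021B22Rik (0.975). Those nearest to Cxcl17 were Cdc42se1 (0.995), Wee1 (0.978) and Ptprj (0.976). The KO minus WT difference of these 6 genes was between 0.23 for Cdc42se1 and 0.62 for Adgrl1, below that of Dmbt1 in every case. The nearest gene was Tnrc6c for Tff2 (0.989), Narf for Pla2g1b (0.995), Tuba1b for Prom1 (0.998), Fgd2 for Krt7 (0.982) and Nme7 for Glipr1 (0.992). Among the 7 themselves the pair after Dmbt1 and Cxcl17 was Glipr1 and Krt7 (r = 0.71), both lowest in HET, and the most opposed pair was Tff2 and Glipr1 (r = -0.59). With 6 arrays and 7858 genes to choose from, such values are a description only.

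Between the tissues the list split into a group kept to stomach and a group shared with colon. Over the 6 colon and 6 stomach arrays all 7 genes passed in limma, 3 lower and 4 higher in colon, where 48.8% of 8393 genes passed, 27.3% lower and 21.4% higher. The arrays of the tissues did not overlap in 3 genes with colon lower and 2 with colon higher, against 17.7% and 12.3% of all genes. Tff2, Pla2g1b and Cxcl17 were lower in colon. Pla2g1b lay between 13.86 and 14.30 in stomach and between 4.49 and 5.63 in colon, where none of 6 arrays reached the filter level. That is at least 202-fold lower in colon (adjusted p = 1.6e-11), and the other bright probe set was likewise below the filter level on all 6 colon arrays, between 4.11 and 5.43. Tff2 lay between 13.61 and 13.93 in stomach and between 5.30 and 7.45 in colon, with 2 of 6 colon arrays above the filter level, and was at least 148-fold lower (adjusted p = 4.6e-08). Cxcl17 lay between 11.07 and 11.88 in stomach and between 4.40 and 5.98 in colon, at least 29.4-fold lower (adjusted p = 6.6e-08).

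Dmbt1, Krt7, Glipr1 and Prom1 were higher in colon, so although chosen as genes of gastric glands these 4 were not limited to stomach on these arrays. Krt7 lay between 8.61 and 9.41 in stomach and between 10.08 and 10.41 in colon, a difference of 1.24 (SE 0.13, adjusted p = 5.8e-05), with no overlap. Glipr1 lay between 7.78 and 8.41 in stomach and between 8.44 and 9.57 in colon, a difference of 0.72 (SE 0.18, adjusted p = 0.00766), also without overlap. Its highest value was on colon KO 2, where the mean of 9 pancreas genes was 7.40 against 5.48 to 5.82 on the other colon arrays; the part of this in Glipr1 was not tested. Pla2g1b, itself a pancreas gene, read 5.55 there, below the filter level.

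Dmbt1 was 2.17 higher in colon (SE 0.35, adjusted p = 0.000785), or 4.51-fold, but its arrays overlapped: colon WT 2 read 11.67, below both stomach KO arrays, while the other colon arrays read 14.00 to 14.27. Those other values lie near the top of the arrays, which limits the fold. The difference ranged from 1.76 to 2.58 with 1 array left out. Prom1 was 2.01-fold higher in colon (adjusted p = 0.0469 in limma), with stomach between 11.71 and 12.03, colon WT 2 at 10.53 and the other colon arrays between 13.21 and 13.41. Without colon WT 2 its difference was 1.45 (adjusted p = 2.8e-07) and without colon WT 1 it was 0.56 (adjusted p = 0.000199). The call on Prom1 lies close to the threshold and was lost in 13 of 20 alternatives, with adjusted p-values of up to 0.104.

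**Figure D4:**
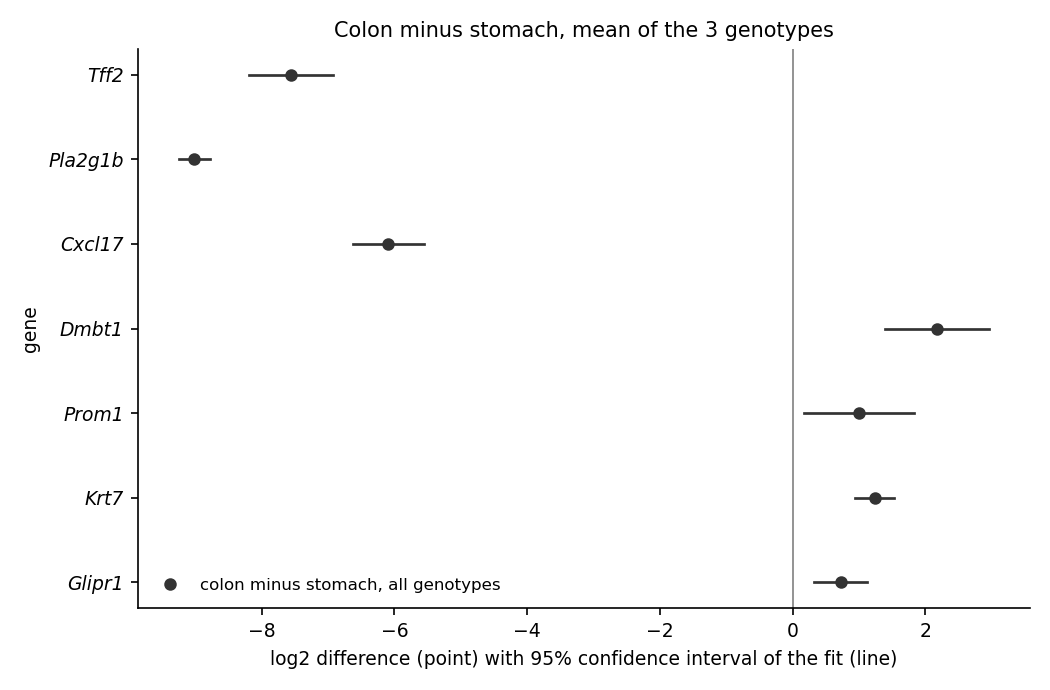
Colon minus stomach for the 7 genes, averaged over the 3 genotypes, on the log2 scale; points are fitted differences over 6 against 6 arrays and lines their 95% confidence intervals. Pla2g1b, Tff2 and Cxcl17 lie far to the left, where the fitted values rest on colon levels below the filter and the text gives bounds, and the other 4 lie between 0.72 and 2.17.

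The sequences before the annotated starts are shown for 1 gene of each kind: Pla2g1b, kept to stomach, and Krt7, higher in colon, the pair that has a RefSeq promoter entry and tissue values without overlap. Each is the 250 bases before the RefSeq gene start in GRCm38.p6, 5′ to 3′ on the gene's own strand, Pla2g1b at chr5:115465892-115466141 and Krt7 at chr15:101412153-101412402, both on the plus strand. Capitals mark the ETS core letters GGAA and GGAT on either strand (TTCC and ATCC on the other).
Pla2g1b: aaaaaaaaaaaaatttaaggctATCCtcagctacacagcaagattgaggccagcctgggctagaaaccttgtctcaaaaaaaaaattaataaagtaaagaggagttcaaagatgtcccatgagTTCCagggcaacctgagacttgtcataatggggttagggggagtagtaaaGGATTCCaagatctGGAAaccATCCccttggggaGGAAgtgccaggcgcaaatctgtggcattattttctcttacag
Krt7: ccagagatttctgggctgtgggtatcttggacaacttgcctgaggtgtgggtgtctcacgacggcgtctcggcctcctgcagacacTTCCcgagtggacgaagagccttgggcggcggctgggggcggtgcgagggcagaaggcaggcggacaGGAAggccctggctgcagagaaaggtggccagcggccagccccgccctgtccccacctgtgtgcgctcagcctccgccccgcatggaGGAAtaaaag

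Pla2g1b held 4 matches to GGAA and 3 to GGAT, some of them overlapping, and Krt7 held 3 and 0. These letters are common: 93.4% of 32851 promoters of that length held GGAA and 74.1% held GGAT. Promoter entries were matched for 4 of the 8 genes. Of the others matched, Prom1 has 2 starts, with 3 and 1 matches at the first and 7 and 2 at the second, and Muc6 held 2 and 1. A match is a description of the sequence, not a binding site. The windows of Pla2g1b and of the second start of Prom1 end in a run of pyrimidines followed by cag, as the end of an intron does, so these annotated starts may not be starts of transcription.

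In colon none of the 5 tested genes passed the threshold between genotypes over all arrays, and the larger differences rested on colon WT 2. Dmbt1 read 14.12 and 11.67 in WT, 14.10 and 14.00 in HET and 14.27 and 14.16 in KO. Both KO arrays lay above all others, by little over WT 1 and by much over WT 2. The order of both KO arrays over WT 1 and HET 1 exists only after quantile normalization of ranks near the top of the arrays. Deposited intensities were 23641 in WT 1, 3361 in WT 2, 15909 in HET 1, 12219 in HET 2 and 16272 and 15043 in KO. KO minus WT was 1.32 (95% confidence interval -0.05 to 2.68, adjusted p = 0.450 in limma), 0.81 without quantile normalization, 0.09 without colon WT 2, and 2.54 (adjusted p = 0.000365) without colon WT 1, when colon WT 2 is the only WT array. Prom1 read 13.22 and 10.53 in WT, 13.34 and 13.24 in HET and 13.41 and 13.21 in KO. Its KO minus WT difference was 1.43 (adjusted p = 0.445 in limma), 0.08 without colon WT 2 and 2.78 (adjusted p = 8.8e-06) without colon WT 1.

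Krt7 in colon was even, at 10.31 and 10.32 in WT, 10.41 and 10.08 in HET and 10.21 and 10.20 in KO, with KO minus WT at -0.11 (95% confidence interval -0.62 to 0.41). Glipr1 read 8.99 and 8.44 in WT, 8.80 and 9.01 in HET and 8.58 and 9.57 in KO, with KO minus WT at 0.36 (-0.32 to 1.04). The range of Glipr1 within KO was wider than any of its differences between genotypes. Tff2 passed the colon filter through WT 1 (6.56) and HET 2 (7.45), and the other 4 arrays lay between 5.30 and 6.01. Its differences from HET there have only bounds, and KO minus WT has none, since both means lay below the filter level. Cxcl17 and Pla2g1b were below the filter level on all 6 colon arrays and were not tested.

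For KO minus WT in colon 0 of 5 genes passed in limma and 0 had an unadjusted p under 0.05, where 0.0505% of all genes passed and 886 had such a p. The KO and WT arrays did not overlap in 1 gene with KO higher (Dmbt1, which overlapped before normalization) and 1 with KO lower (Krt7), against 20.4% and 10.6% of all genes. KO minus HET passed in 0 of 5 in limma (background 0.0253%), with 0 at an unadjusted p under 0.05. The arrays were apart, with KO higher, in 1 gene and, with KO lower, in 0, against 20% and 15.1% of all genes. That gene was Dmbt1, whose KO and HET arrays overlapped before normalization. HET minus WT passed in 0 of 5 in limma (background 0.0253%), with 0 at an unadjusted p under 0.05. The arrays were apart, with HET higher, in 1 gene and, with HET lower, in 0, against 22.3% and 15% of all genes. This was Prom1, whose HET and WT arrays overlapped before normalization. None of the 5 stood in the order WT below HET below KO without overlap, which 2.45% of the genes tested in colon did, and none in the opposite order, which 0.96% did. Of the further mucous gland genes, 11 were tested for KO minus WT in colon. Among them 1, Creb3l4, was lower (at least 4.24-fold, adjusted p = 0.0460 in limma). That call was lost in 17 of 21 alternatives, with adjusted p-values of up to 0.783. The difference of Creb3l4 was negative in all 21, at -2.99 without colon WT 2 and -1.98 without colon WT 1.

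Whether the genotype difference of a gene itself differed between tissues was tested in the same fit. Cxcl17 and Pla2g1b had no colon level above the filter and Tff2 only on 2 arrays, so for these 3 the test says nothing. None of the other 4 passed in limma (adjusted p from 0.888 to 0.940, 0 with an unadjusted p under 0.05), where 0.0238% of all genes did. For Dmbt1 the KO minus WT difference in colon less that in stomach was -0.89 (95% confidence interval -2.82 to 1.04), and it was -2.12 (adjusted p = 0.0883) without colon WT 2 and 0.33 without colon WT 1, which turns its direction. For Prom1 it was 1.29 (-0.74 to 3.32), and it was -0.06 without colon WT 2 and 2.64 (adjusted p = 0.000118) without colon WT 1. A difference between tissues in the response of Dmbt1 was therefore not shown.

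Outside the 7, the further mucous gland genes also split by tissue. Of 13 tested between tissues, 5 were higher in colon and 3 lower in limma. Bpifb1 was at least 92.5-fold lower and Clu was 16.8-fold lower in colon, and Cftr, the chloride channel, was among those higher (at least 8.84-fold against the filter level). Of the trefoil peptides Tff1 was 168-fold lower and Tff3 136-fold higher in colon, beside the drop of Tff2.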

How the data were processed

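RNA of 12 samples was read on 1 array each. The authors deposited 1 linear intensity for each probe set, scaled to a trimmed mean of 500.07 to 500.09. Per the submitters' processing notes the tool was RMA for colon WT 1 and both stomach KO arrays and MAS5 for the other 9, without a version. From the deposited intensities log2(intensity + 16) was computed and quantile normalized. Of 22716 probe sets 90 controls were left out, 18003 of the rest had 1 gene, 287 several and 4336 none. Each of 11807 genes was read from its probe set with the highest mean. Current symbols and chromosomes came from RefSeq annotation for 17977 probe sets, and 26 kept the given symbol. Promoter sequences are RefSeq's in GRCm38.p6.

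Genes at or above 6.53, the 40th percentile (an intensity of 76.5), on at least 2 of the 6 arrays of a tissue were tested, which left 7858 genes in stomach, 7913 in colon and 8393 between tissues. Where 1 of the means compared lay below that level, the fold is given as "at least", against it. limma 3.58.1 in R 4.3.3 fitted 1 mean per group over all 12 arrays, with an intensity trend and 6 residual degrees of freedom. Benjamini-Hochberg adjustment was made over all genes tested, with 0.05 as the threshold. The number of arrays limits the precision. The pipeline was tested on simulated data. Figures used Python 3.11.15 and matplotlib 3.10.9.

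The 8 genes and the lists of further mucous gland genes, gene families and cell type markers were chosen with earlier results of these data known. Named were the 8 genes in every comparison, those of the further mucous gland genes past the threshold or otherwise the 3 with the largest difference, genes of other lists where a result turned on them, and the 3 most alike over the stomach arrays. Clu, Bpifb1 and the family members named were chosen after their values were seen. Alternatives were to omit the quantile step, to add 1 or 64 in place of 16, to drop the filter or raise it to the array median, to omit the intensity trend, to fit each tissue alone, to test all probe sets, to block on the replicate number, and to leave out 1 array at a time. The difference between tissues for Dmbt1 and Prom1, and Creb3l4, under these were added after the data were seen.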

Additional observations from a re-analysis of the deposited data

Results flagged for a closer look

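On the 6 colon arrays colon WT 2 stood apart for 2 genes. Dmbt1 was lowest there, at 11.67 against 14.00 to 14.27 on the other 5, and Prom1 was lowest there, at 10.53 against 13.21 to 13.41. The gap to the nearest other array took up 0.897 of the whole range for Dmbt1 and 0.929 for Prom1, above Dixon's 95% critical value for 6 arrays. Chance alone marks about 1 in 20 such sets, and 14 sets were examined. The same array had the low colon and high small intestine markers given above, and their part in these values was not tested.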

How the results depend on the processing

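The number of the 7 genes past the threshold stayed at 7 between tissues in the replicate block fit, and Prom1 was the gene lost there under other settings. For stomach KO minus WT it went from 0 to 1 with each tissue fitted alone and ranged from 0 to 1 over the left-out arrays, the 1 being Dmbt1 without colon WT 1 or colon WT 2. For colon KO minus WT and colon HET minus WT it ranged from 0 to 2, with Dmbt1 and Prom1 past the threshold without colon WT 1, and for the difference of KO effects between tissues from 0 to 1, with Prom1. The difference of Dmbt1 in stomach KO minus WT lay between 2.02 and 2.40 with an array left out, and its adjusted p in limma ran from 0.00548 to 0.9999 over 21 alternatives, 3 of them past the threshold. Its place by size was 1 in most settings, 2 without stomach WT 1, KO 1 or KO 2 and 3 with every probe set.

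Values near 0 changed sign. Without quantile normalization Tff2 gave -0.042 for stomach KO minus WT, -0.025 for stomach HET minus WT and -0.13 for colon KO minus WT, and Prom1 gave -0.0096 for stomach HET minus WT; at an offset of 64 Tff2 gave -0.022 for colon KO minus WT. Over the left-out arrays, stomach KO minus WT ranged from -0.14 to 0.017 for Glipr1, -0.21 to 0.31 for Krt7, -0.16 to 0.035 for Pla2g1b and -0.0068 to 0.13 for Tff2. Stomach HET minus WT ranged from -0.41 to 0.035 for Pla2g1b and -0.052 to 0.075 for Prom1, and stomach KO minus HET from -0.096 to 0.34 for Pla2g1b and -0.18 to 0.060 for Tff2. Colon HET minus WT ranged from -0.073 to 2.38 for Dmbt1, -0.085 to 0.46 for Glipr1 and -0.24 to 0.0998 for Krt7. Colon KO minus HET ranged from -0.33 to 0.66 for Glipr1, -0.21 to 0.13 for Krt7 and -0.084 to 0.12 for Prom1, and colon KO minus WT from -0.14 to 0.85 for Glipr1 and -0.61 to 0.074 for Tff2. For Tff2 both means of colon KO minus WT lay below the filter level over all arrays, so its values there are not measured differences. The difference of KO effects between tissues ranged from -2.12 to 0.33 for Dmbt1 and -0.059 to 2.64 for Prom1. The causes were not tested. Deviations of same-numbered arrays correlated between -0.37 and 0.31. With 1 deviation per group, that cannot settle whether the replicate numbers pair the samples. The replicate block changed no call on the 7 genes (Dmbt1 in stomach KO minus WT, adjusted p = 0.954 in limma). An array pair per group, not signal over background, limits these comparisons, with exceptions. Tff2, Pla2g1b and Cxcl17 were dim in colon. Tff2 and Pla2g1b in stomach and Dmbt1 in colon were near the top of the arrays.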
